A study of Sus scrofa with 43 samples.

Results

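The genes described here are the pig MHC class II genes and CD74, a set of 9 genes measured in jejunum scrapings of piglets. The pig MHC is named SLA (swine leukocyte antigen), and the members are SLA-DRA, SLA-DRB1, SLA-DQA1, SLA-DQB1, SLA-DMA, SLA-DMB, SLA-DOA, SLA-DOB and CD74. Their spots were found by name: every array spot whose accession is the RefSeq transcript of one of these symbols was taken, which gave 32 probes out of 43603 probe names. In all, 35884 accessions were on the array, and 12771 of them, including 8 of the 9 members, passed the filter on dim spots and were tested. SLA-DOB did not pass and is described without the test. SLA-DOA passed only through groups older than day 1, so its part in counts of rises from day 1 is description only.

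MHC class II molecules are pairs of an alpha and a beta chain that carry peptides from swallowed or engulfed material to the cell surface, where CD4 T cells read them. CD74, the invariant chain, holds the groove of new class II molecules closed and guides them to the endosome. There DM exchanges the last CD74 fragment for a peptide, and DO restrains DM. In the gut these genes are mainly expressed by dendritic cells, macrophages and B cells of the lamina propria and lymphoid follicles, and in pigs also by some T cells and by capillary endothelium.

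One arm of piglets was born from control sows on standard gestation and lactation feed. The other was born from sows given amoxicillin, a penicillin-type antibiotic, over the feed at 15 mg/kg of body weight daily in the last week before farrowing, with none after farrowing. Each array held the RNA of 1 apparently healthy male piglet, and different piglets were sampled at each age, so the course over age is a comparison between animals. Arrays of control piglets numbered 6 at day 1, 6 at day 7, 3 at weaning, 5 at 4 d postweaning and 3 at 28 d postweaning, while amoxicillin piglets numbered 4 at each of the 5 ages.

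The 43 one-color arrays had between 15937 and 29827 gene spots well above background, with a median of 25791. Amoxicillin arrays had 16150 to 26290. Control arrays had 25560 to 29827, apart from piglet 34 at 28 d postweaning with 15937. The arrays lay on 6 slides, 3 per arm, and no slide held both arms, so that slide and treatment cannot be told apart. Enterocyte markers were bright on every array, with a summed level of 16.84 to 18.30 on the log2 scale. The 1 blood marker and the 3 pancreatic acinar markers with a probe did not pass the filter, which does not show them absent from every array. The summed pancreatic level reached 11.21 in an amoxicillin piglet at 28 d postweaning and 9.85 in a control piglet at 4 d postweaning. All levels below are log2 normalized intensities, and a difference of 1 is a doubling. Levels are not compared between genes, since probes differ in brightness. In scrapings, fewer cells of a type and less RNA per cell cannot be told apart.

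Expression of the class II genes and CD74 was lowest at day 1 and higher at day 7 in both arms. Between day 1 and day 7, 5 of the 8 tested members rose in control piglets and 6 of 8 in amoxicillin piglets, by 2.56-fold to 5.82-fold. SLA-DOA, among the 5 in control piglets, had passed the filter only through later ages. Among all tested accessions, 0.783% rose over this step in control piglets and 0.478% in amoxicillin piglets. The median change of the 8 members was 1.39 and 2.44 on the log2 scale, against 0.03 and 0.05 over all tested accessions. The control count rested on few arrays: it fell to between 1 and 3 members when piglet 19B or 20 at day 1 or piglet 20, 21, 22 or 23 at day 7 was left out, while all 8 control differences stayed above 0. For these fits the share over all tested accessions was not computed. With slide as a random block the control step called 0 of 8 members and the amoxicillin step 6, against 0.392% and 0.705% of all tested accessions in either direction. The 5 control members above then had differences of 1.24 to 1.65 and adjusted p between 0.052 and 0.23. No member passed the test between any 2 later ages in either arm, nor between the arms at any single age.

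**Figure D1:**
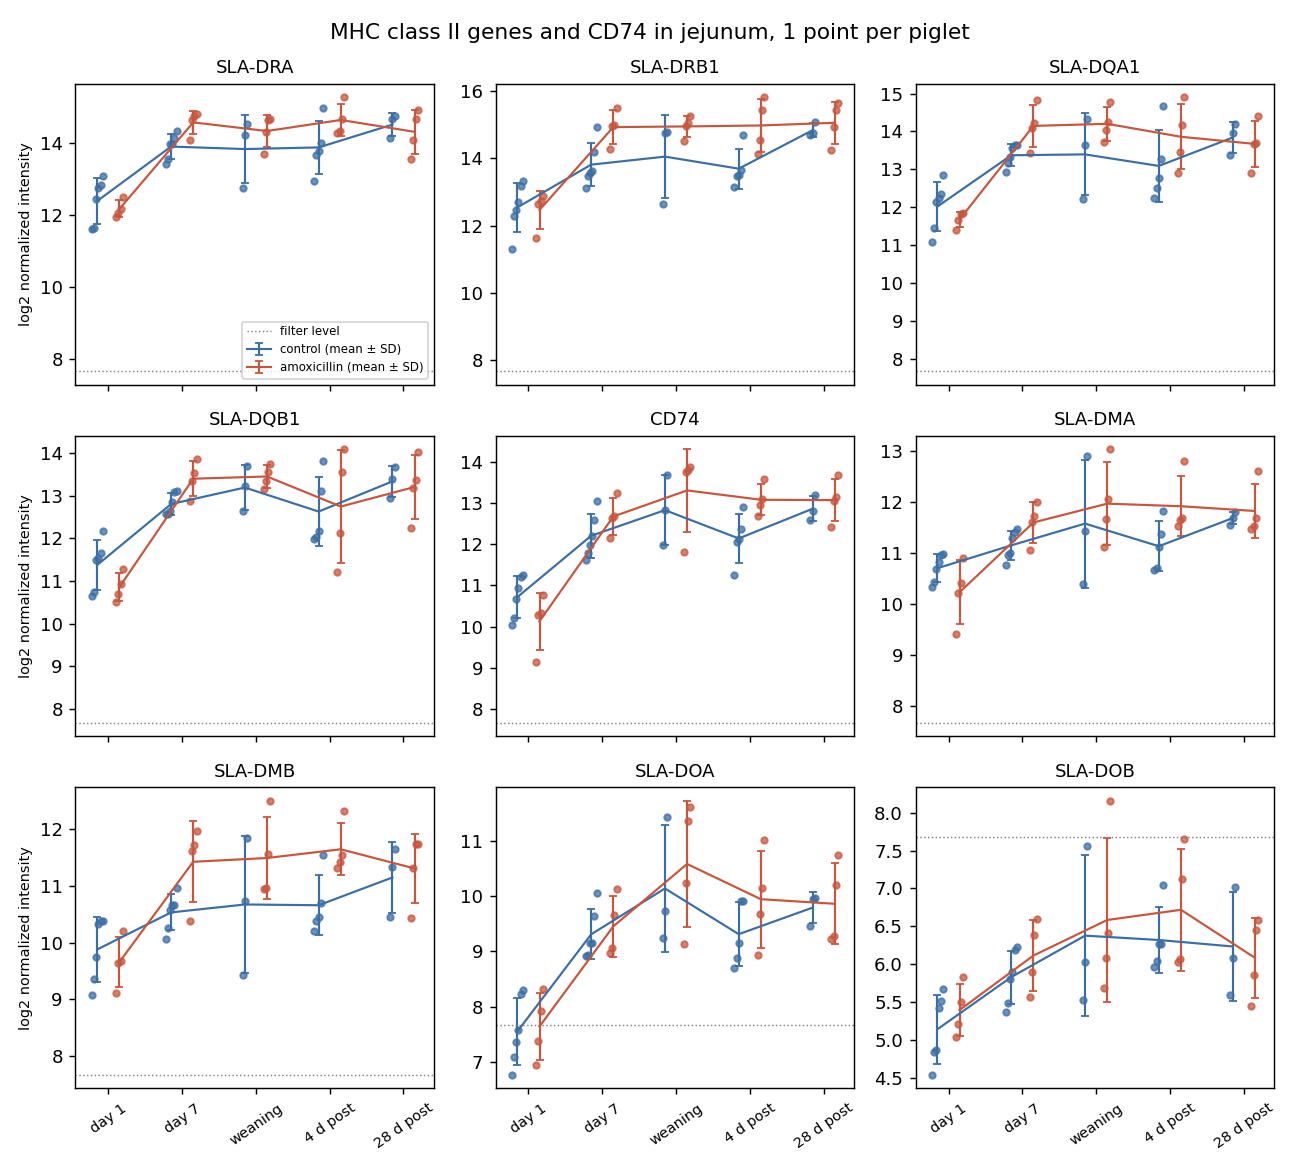
Log2 normalized intensity of each of the 9 genes (y axis) at the 5 ages (x axis), with 1 point per piglet, lines and bars for mean ± SD of each arm, and a dotted line at the filter level. In each of the 9 panels both arms have their lowest mean at day 1, and SLA-DOB lies mostly under the filter level.

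SLA-DRA encodes the alpha chain of the DR molecule, a chain that varies little between animals, and it had 7 probes. In control piglets its level at day 1 ran from 11.61 to 13.09 with a median of 12.60, and at day 7 from 13.42 to 14.34 with a median of 13.99. The 3 weaning piglets had 12.76, 14.23 and 14.54, the 5 piglets at 4 d postweaning had 12.97, 13.68, 13.78, 14.02 and 15.00, and the 3 at 28 d postweaning had 14.15, 14.67 and 14.75. The day 1 and day 7 groups did not overlap, while 1 weaning piglet and 1 piglet at 4 d postweaning lay within the day 1 range. In amoxicillin piglets the 4 day 1 values were 11.96, 12.07, 12.18 and 12.51, and the 4 day 7 values were 14.10, 14.65, 14.78 and 14.81. The weaning group had 13.72, 14.31, 14.66 and 14.69, the group at 4 d postweaning had 14.29, 14.35, 14.68 and 15.28, and the group at 28 d postweaning had 13.57, 14.10, 14.68 and 14.94. Every later amoxicillin value lay above every day 1 value. The rise from day 1 to day 7 was 1.51 ± 0.31 (SE, adjusted p = 0.0048) in control piglets and 2.41 ± 0.38 (adjusted p = 0.000368) in amoxicillin piglets, by limma as for all adjusted values here.

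SLA-DRB1, the polymorphic beta chain of DR, had 4 probes. Control values at day 1 ran from 11.31 to 13.32 with a median of 12.58, and at day 7 from 13.11 to 14.93 with a median of 13.60. Control weaning piglets had 12.64, 14.75 and 14.77, those at 4 d postweaning had 13.14, 13.48, 13.50, 13.66 and 14.70, and those at 28 d postweaning had 14.69, 14.75 and 15.09. Control day 1 and day 7 overlapped slightly, and the step of 1.27 ± 0.37 missed the threshold (adjusted p = 0.073). Amoxicillin values were 11.64, 12.64, 12.72 and 12.87 at day 1 and 14.28, 14.96, 15.00 and 15.49 at day 7. The weaning piglets had 14.53, 14.97, 15.05 and 15.27, the piglets at 4 d postweaning had 14.13, 14.54, 15.44 and 15.82, and those at 28 d postweaning had 14.25, 14.93, 15.43 and 15.64. The day 1 piglets stood apart from all later amoxicillin piglets, and the step to day 7 was 2.47 ± 0.45 (adjusted p = 0.00203).

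The DQ molecule is the second classical presenting pair, made of SLA-DQA1 (7 probes) and SLA-DQB1 (4 probes). SLA-DQA1 had a mean level of 12.02 ± 0.64 (SD, n = 6) at day 1 and 13.37 ± 0.29 (n = 6) at day 7 in control piglets, and of 11.68 ± 0.20 (n = 4) and 14.15 ± 0.56 (n = 4) in amoxicillin piglets. Its rise was 1.35 ± 0.36 (SE, adjusted p = 0.0476) in control piglets and 2.47 ± 0.45 (adjusted p = 0.00203) in amoxicillin piglets. The control value lay just inside the threshold. SLA-DQB1 had a mean level of 11.37 ± 0.58 at day 1 and 12.80 ± 0.25 at day 7 in control piglets, and of 10.85 ± 0.33 and 13.39 ± 0.41 in amoxicillin piglets. Its rise was 1.43 ± 0.36 (adjusted p = 0.0287) and 2.54 ± 0.44 (adjusted p = 0.00108). For both genes day 1 and day 7 did not overlap in either arm. From weaning on, SLA-DQA1 means ran from 13.09 to 14.20 and SLA-DQB1 means from 12.63 to 13.45 over both arms.

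CD74, the invariant chain, had 2 probes. In control piglets its level ran from 10.04 to 11.25 (median 10.81) at day 1 and from 11.62 to 13.04 (median 12.09) at day 7. At weaning the control piglets had 11.98, 12.82 and 13.67, at 4 d postweaning they had 11.26, 12.06, 12.13, 12.36 and 12.89, and at 28 d postweaning 12.59, 12.79 and 13.19. The highest day 1 piglet lay just under the lowest later piglet. CD74 and SLA-DOA were thus the 2 members with no overlap between day 1 and all later control piglets, against 1.39% of all tested accessions. SLA-DOA had passed the filter only through later ages, so its separation is description only. CD74 values in amoxicillin piglets were 9.15, 10.28, 10.32 and 10.77 at day 1 and 12.14, 12.63, 12.67 and 13.23 at day 7. At weaning they were 11.81, 13.75, 13.78 and 13.87, at 4 d postweaning 12.68, 12.94, 13.09 and 13.59, and at 28 d postweaning 12.41, 13.04, 13.15 and 13.67. The day 1 amoxicillin piglets again lay below all later ones, as they did for 7 of the 8 tested members, against 1.03% of all tested accessions. CD74 rose by 1.49 ± 0.34 (adjusted p = 0.0161) in control and by 2.54 ± 0.41 (adjusted p = 0.00061) in amoxicillin piglets from day 1 to day 7, and was 4.40-fold and 7.64-fold higher at 28 d postweaning than at day 1.

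SLA-DMA and SLA-DMB encode the 2 chains of DM, the peptide exchanger, and each had 2 probes. SLA-DMA values ran from 10.34 to 10.97 at day 1 and from 10.77 to 11.46 at day 7 in control piglets, and the means were 10.23 ± 0.62 and 11.60 ± 0.40 in amoxicillin piglets. SLA-DMB had a mean level of 9.88 ± 0.57 and 10.53 ± 0.32 in control piglets, and of 9.66 ± 0.45 and 11.43 ± 0.71 in amoxicillin piglets. In control piglets both genes overlapped between day 1 and day 7. Their steps of 0.45 ± 0.32 (SLA-DMA, adjusted p = 0.66) and 0.65 ± 0.34 (SLA-DMB, adjusted p = 0.51) missed the threshold, whereas in amoxicillin piglets SLA-DMB rose by 1.77 ± 0.42 (adjusted p = 0.032) and SLA-DMA had a step of 1.37 ± 0.39 (adjusted p = 0.10). By 28 d postweaning SLA-DMB was 2.41-fold higher than at day 1 in control piglets (adjusted p = 0.0233), and SLA-DMA had a difference of 0.98 (adjusted p = 0.059). In amoxicillin piglets at that age SLA-DMA was 3.01-fold and SLA-DMB 3.14-fold higher.

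SLA-DOA and SLA-DOB encode the alpha and beta chain of DO, the restrainer of DM, known mainly from B cells. SLA-DOA values ran from 6.77 to 8.30 (median 7.47) at day 1 and from 8.91 to 10.05 (median 9.16) at day 7 in control piglets. In amoxicillin piglets they were 6.95, 7.39, 7.92 and 8.32 at day 1 and 8.97, 9.05, 9.65 and 10.13 at day 7. Both arms separated day 1 from day 7 without overlap. The control rise was 1.75 ± 0.40 (adjusted p = 0.0155), and the amoxicillin step of 1.81 ± 0.49 missed the threshold (adjusted p = 0.074). Since SLA-DOA passed the filter only through groups older than day 1, this separation and these steps are description only. SLA-DOA values at weaning reached 11.44 in control and 11.60 in amoxicillin piglets, with means of 10.14 ± 1.15 and 10.58 ± 1.14, the highest mean of the course in each arm. Without control piglet 7, which was also the control piglet highest in B cell markers, the control weaning mean was 9.49 and lay below that of 28 d postweaning (9.79), and without amoxicillin piglet 8 the amoxicillin mean was 10.24.

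SLA-DOB was dim throughout, with group means between 5.15 ± 0.45 and 6.38 ± 1.06 in control piglets and between 5.40 ± 0.35 and 6.72 ± 0.80 in amoxicillin piglets. A probe of it was well above background in 1 of 6 control piglets at day 1, and in 6 of 6 at day 7, 3 of 3 at weaning, 5 of 5 at 4 d postweaning and 2 of 3 at 28 d postweaning. In amoxicillin piglets the numbers were 0 of 4 at day 1, 2 of 4 at each of the next 3 ages and 1 of 4 at 28 d postweaning. Most amoxicillin arrays had fewer gene spots of any kind well above background, so these numbers are not compared between the arms. Without the filter, the SLA-DOB difference between 28 d postweaning and day 1 was 1.09 ± 0.43 (adjusted p = 0.10) in control and 0.69 ± 0.43 (adjusted p = 0.25) in amoxicillin piglets.

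Taking the course as a whole, an F-test over the 5 ages called 6 of the 8 members in control piglets, against 30.5% of all tested accessions, and 8 of 8 in amoxicillin piglets, against 47%. The 2 members not called in control piglets were SLA-DMA (adjusted p = 0.19) and SLA-DMB (adjusted p = 0.12). From day 1 to 28 d postweaning, 7 of 8 members rose in control piglets, by 2.41-fold to 4.91-fold, where 13.4% of all tested accessions rose. In amoxicillin piglets 8 of 8 rose, by 3.01-fold to 7.64-fold, where 12.5% of all rose. The median difference was 2.04 in control and 2.18 in amoxicillin piglets, against -0.08 and -0.11 over all tested accessions. SLA-DOA, which passed the filter only through later ages, is in each of these counts, and its part is description only.

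Day 1 had the lowest mean of the 5 ages in each member and arm. In control piglets 28 d postweaning had the highest mean in 7 of the 8 members, all but SLA-DOA. In amoxicillin piglets weaning had the highest mean in SLA-DQA1, SLA-DQB1, CD74, SLA-DMA and SLA-DOA, 4 d postweaning in SLA-DRA and SLA-DMB, and 28 d postweaning in SLA-DRB1. No pair of later ages passed the test, and the calls all involved day 1. From day 1 to weaning the test called 6 of 8 members higher in control piglets, against 4.82% of all tested accessions, and 8 of 8 in amoxicillin piglets, against 12.9%. From day 1 to 4 d postweaning it also called 6 of 8 and 8 of 8, against 13.4% and 7.96%. Over the 10 pairs of ages and 8 members, limma called 24 of 80 comparisons in control and 30 of 80 in amoxicillin piglets, and each of them was a rise from day 1. Those of SLA-DOA, tested only through later ages, are description only. Over all tested accessions and the same pairs 11% and 16.4% of comparisons were called. Of the 48 comparisons per arm without day 1, 0 were called, with the lowest adjusted p at 0.11 and 0.13, against 7.99% and 15.8% over all tested accessions. Between neighbouring later ages, limma called 0 members, and an unadjusted p under 0.05 was reached by 1 member in control piglets, SLA-DRB1 with 1.14 from 4 d to 28 d postweaning, and by 1 in amoxicillin piglets, SLA-DOA with 1.13 from day 7 to weaning. Of all tested accessions, 0.125%, 2.53% and 0% were called in the 3 later steps in control piglets and 11.3%, 6.37% and 12.7% in amoxicillin piglets. With the day 1 arrays left out, the F-test over the other 4 ages called 0 of 8 members in each arm, with 0 at an unadjusted p under 0.05, against 15.9% and 33.6% of all tested accessions.

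**Figure D2:**
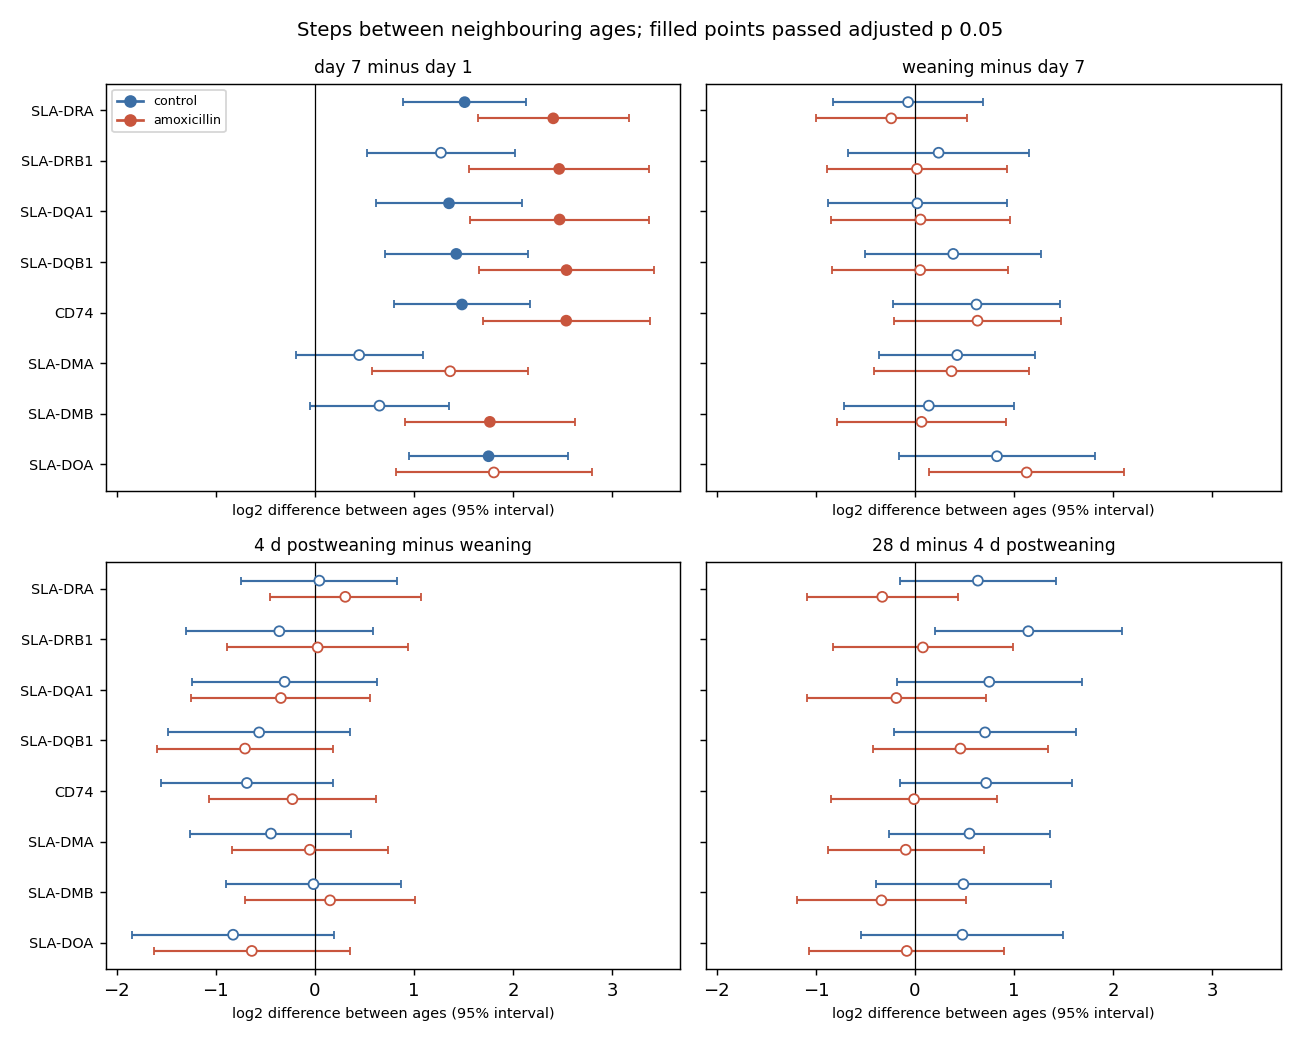
Difference between neighbouring ages in log2 normalized intensity (x axis) for the 8 tested members (y axis), 1 panel per step, with 95% intervals, colours for the 2 arms and filled points for an adjusted p under 0.05. The filled points stand in the panel of day 7 minus day 1 only, with 5 for control and 6 for amoxicillin piglets.

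Day 7 piglets separated from day 1 piglets without overlap in 5 of 8 members in control piglets (SLA-DRA, SLA-DQA1, SLA-DQB1, CD74 and SLA-DOA), where 4.07% of all tested accessions did so. In amoxicillin piglets 8 of 8 members separated, against 3.19%. Comparing day 1 with 28 d postweaning, 8 of 8 members separated in both arms, against 18% and 10.1% of all tested accessions. At weaning 3 of 8 members lay wholly above day 1 in control piglets, against 12.1%, and 8 of 8 in amoxicillin piglets, against 9.14%. At 4 d postweaning 2 of 8 members separated from day 1 in control piglets, against 10.2%, and 7 of 8 in amoxicillin piglets, against 7.24%. SLA-DQB1 was the exception there, with amoxicillin piglet 33 at 11.20 within the day 1 range, the piglet with a single low SLA-DQB1 spot described with the probes. SLA-DOA, tested only through later ages, is in each of these counts of separated members as description only.

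The step from day 1 to day 7 was also present within slides. On the control slide that held both ages, 8 of 8 members were higher in the 2 day 7 piglets than in the 6 day 1 piglets, by 0.16 to 1.48 with a median of 1.11. On the corresponding amoxicillin slide, 8 of 8 were higher in 3 day 7 piglets than in 4 day 1 piglets, by 1.23 to 2.55 with a median of 2.26. With slide as a fixed block in the fit, 5 of 8 members were still called for this step in amoxicillin piglets and 0 in control piglets, and with slide as a random block 6 and 0. Of all tested accessions the fixed block called 0.517% and 0.172% in either direction, and the random block 0.705% and 0.392%. Day 1 and 28 d postweaning never shared a slide. For that difference the random block called 6 of 8 members in control and 8 of 8 in amoxicillin piglets, against 14.9% and 19.1% of all tested accessions in either direction. The fixed block links both ages only through the slides between them. It called 0 members in each arm, and of all tested accessions 0.525% in control and 4.66% in amoxicillin piglets. Under the fixed block the 7 control differences called without it were 2.14 to 3.66 (adjusted p 0.051 to 0.54) and the 8 amoxicillin differences 0.66 to 2.96 (adjusted p 0.099 to 0.79), with SLA-DQA1 at 0.70 and SLA-DQB1 at 0.66 in amoxicillin piglets, where the fit without slide gave 2.00 and 2.35.

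**Figure D3:**
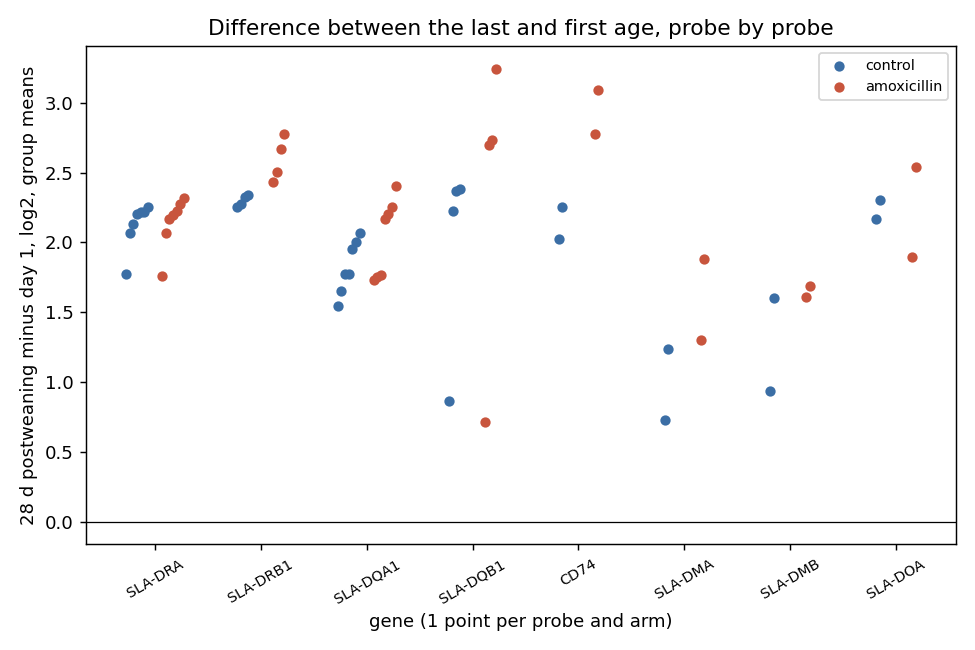
Difference between the group means at 28 d postweaning and day 1 in log2 normalized intensity (y axis) for each of the 30 probes of the 8 tested genes (x axis), 1 point per probe and arm. All 30 probes lie above 0 in both arms, and the SLA-DQB1 probes are spread the most, from 0.71 to 3.24 in amoxicillin piglets.

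The probes of a gene moved alike. All 30 probes of the 8 tested members were higher at day 7 and at 28 d postweaning than at day 1 in both arms. At 28 d postweaning the differences ran from 0.73 to 2.38 in control and from 0.71 to 3.24 in amoxicillin piglets. The 4 SLA-DRB1 probes lay close together, at 2.25 to 2.34 in control piglets, while the 4 SLA-DQB1 probes ran from 0.86 to 2.38. Fitted one by one, 17 of 30 probes rose from day 1 to day 7 in control and 25 of 30 in amoxicillin piglets. The share over all probes was not computed for this fit. Probes of a gene were read on the same arrays, so these probe counts describe the spread and add no replicates.

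Single spots seldom stood apart. For the 4 DR and DQ genes, each spot was centred on its probe's median and set against the gene's other probes on the same array, and 4 of 945 spots lay more than 2 log2 units away, all below. The farthest was an SLA-DQB1 probe (A_72_P039061) at 8.02 in amoxicillin piglet 33 at 4 d postweaning, where the other 3 piglets had 13.05 to 15.80. Another SLA-DQB1 probe (A_72_P631166) was not well above background in 2 amoxicillin piglets at 28 d postweaning, at 6.41 and 7.32. At the bright end, 23 of 1376 member spots were saturated, on probes of SLA-DRA, SLA-DRB1, SLA-DQA1 and SLA-DQB1, and none of them at day 1. With the saturated spots left out, the differences above that passed the test kept their direction and their side of the threshold.

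Maternal amoxicillin was compared with control at each age. The arms also differed in the number of gene spots well above background, as given above. No member passed an adjusted p of 0.05 at any age by limma, with or without the fold threshold of 1.5 on the log2 scale. Among all tested accessions 0.211% were called beyond that fold at day 1, 0% at day 7, 3.41% at weaning, 1.54% at 4 d postweaning and 2.13% at 28 d postweaning. By adjusted p alone these shares were 0.258%, 0%, 7.95%, 3.37% and 4.11%. Without adjustment, a p under 0.05 was reached by 0, 2, 0, 5 and 0 members at these ages, and by 9.9%, 6.95%, 22.2%, 13.6% and 17.4% of all tested accessions. Amoxicillin piglets had the higher mean in 1 of 8 members at day 1, in 8 of 8 at day 7, weaning and 4 d postweaning, and in 5 of 8 at 28 d postweaning. The median difference of the members was -0.28 at day 1, 0.63 at day 7, 0.49 at weaning, 0.78 at 4 d postweaning and 0.10 at 28 d postweaning, where all tested accessions had medians of -0.12, -0.06, -0.07, -0.01 and -0.17.

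SLA-DRB1 had the widest gap between the arms of the 8 members from day 7 to 4 d postweaning. Its difference was 1.12 ± 0.41 (SE, adjusted p = 0.60) at day 7 and 1.29 ± 0.43 (adjusted p = 0.094, 95% interval 0.42 to 2.15) at 4 d postweaning. At 4 d postweaning the highest of the 5 control piglets, at 14.70, lay above 2 of the 4 amoxicillin piglets. Without that piglet, numbered 10, the difference was 1.54 and passed both thresholds (adjusted p = 0.027), without amoxicillin piglet 10 it was 1.01 (adjusted p = 0.33), and without both piglets numbered 10 and the 2 weaning piglets highest in B cell markers it was 1.26 (adjusted p = 0.12). The next gaps at this age were 0.99 ± 0.40 for SLA-DMB (adjusted p = 0.21) and 0.94 ± 0.39 for CD74 (adjusted p = 0.24), and the smallest was 0.12 ± 0.41 for SLA-DQB1 (adjusted p = 0.97). Without amoxicillin piglet 33, which held the SLA-DQB1 spot at 8.02, that gap was 0.63 ± 0.40 (adjusted p = 0.60).

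Averaged over the 5 ages, SLA-DRB1 was 1.61-fold higher in amoxicillin piglets (0.69 ± 0.20, adjusted p = 0.022), and it was the 1 member of 8 called, where 0.955% of all tested accessions were called higher and 9.18% lower. Its mean was higher in amoxicillin piglets at 4 of the 5 ages. The other 7 members had mean differences of 0.06 to 0.53, the largest for SLA-DMB (adjusted p = 0.066). The SLA-DRB1 call was lost with slide as a random block (0.71, adjusted p = 0.26), with normexp values and the processed signal each scaled to a common 75th percentile (0.59, adjusted p = 0.056, and 0.52, adjusted p = 0.084), and without control piglet 25 at weaning (0.55, adjusted p = 0.065). An F-test of whether the difference between the arms changed with age called 0 of 8 members by limma, with 0 at an unadjusted p under 0.05, adjusted p between 0.37 and 0.96, and 6.18% of all tested accessions called. The steps from day 1 to day 7 in both arms were not compared by a test of their own.

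**Figure D4:**
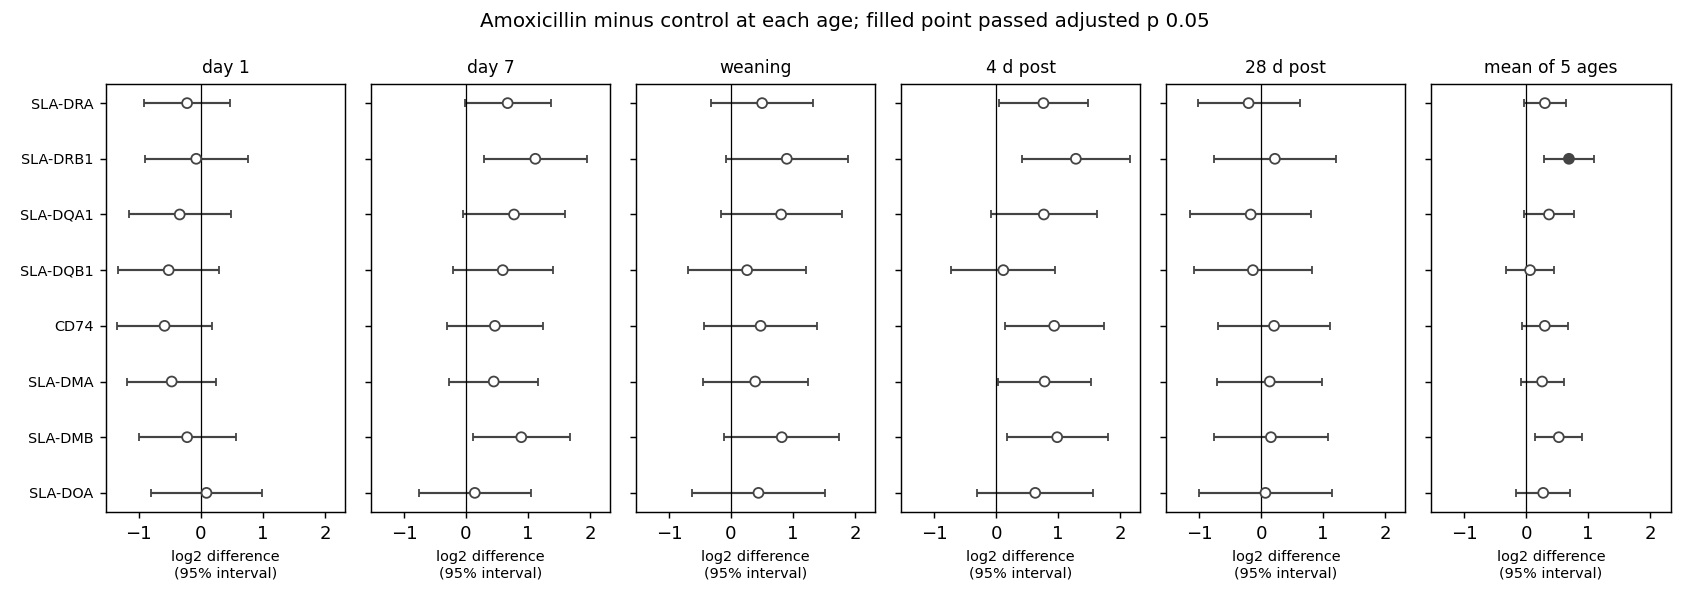
Amoxicillin minus control in log2 normalized intensity (x axis) for the 8 tested members (y axis), 1 panel for each of the 5 ages and 1 for their mean, with 95% intervals and filled points for an adjusted p under 0.05. The 1 filled point is SLA-DRB1 in the panel of the mean, at 0.69.

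Within groups, the same piglets tended to be high or low in most members. Control piglet 7 at weaning was the highest and control piglet 25 the lowest of the 3 in 8 of 8 members. At 4 d postweaning the piglets numbered 10 were the highest in 7 of 8 members in the control arm and in 8 of 8 in the amoxicillin arm. At 28 d postweaning amoxicillin piglet 39 was the highest in 8 of 8 and piglet 38 the lowest in 7 of 8. These counts describe genes measured on the same arrays and carry no test.

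Markers of cells that carry class II molecules were read on the same arrays. The summed level of the 6 T cell markers with a probe (CD3D, CD3E, CD3G, CD247, CD2 and CD8A) ran from 9.23 to 10.15 at day 1, from 10.28 to 12.03 at day 7 and from 12.57 to 13.16 at 28 d postweaning in control piglets. In amoxicillin piglets it ran from 9.27 to 9.73, from 11.10 to 11.97 and from 12.77 to 13.75. T cell markers were thus lowest at day 1 too, and 2 of 6 rose to day 7 in each arm and 6 of 6 rose by 28 d postweaning, with medians of 2.90 and 2.78. Of all tested accessions 0.783% and 0.478% rose to day 7, and 13.4% and 12.5% by 28 d postweaning, in control and amoxicillin piglets. The day 1 sums were too low for all 6 markers to have passed the filter at that age. Some passed only through later ages, so these T cell counts are description only. The 7 macrophage and dendritic cell markers with a probe had a summed level of 12.21 to 13.09 at day 1, 12.68 to 13.30 at day 7 and 12.99 to 13.79 at 28 d postweaning in control piglets, and of 11.96 to 12.73, 13.00 to 13.39 and 13.11 to 14.24 in amoxicillin piglets. Of the 3 that were tested (CD163, SIRPA and AIF1), 0 rose to day 7 and 1 rose by 28 d postweaning in each arm. SIRPA, a receptor of myeloid cells, rose by 1.38 ± 0.38 in control piglets, and AIF1, a macrophage protein, by 1.21 ± 0.30 in amoxicillin piglets. CD163, a scavenger receptor of macrophages, had differences of -1.06 ± 0.49 and -1.14 ± 0.60 from day 1 to day 7, and of -0.41 ± 0.60 and 0.08 ± 0.60 from day 1 to 28 d postweaning, in control and amoxicillin piglets, none of which passed the test. Over the first step SIRPA had -0.29 ± 0.31 and 0.03 ± 0.38, and AIF1 had 0.38 ± 0.25 and 1.01 ± 0.30, likewise not called.

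B cell markers were read as well. The summed level of the 2 B cell markers read here, MS4A1 and CD79A, ran from 6.06 to 8.69 at day 1 and 6.65 to 7.30 at day 7 in control piglets, and from 6.09 to 9.62 and 6.40 to 8.59 in amoxicillin piglets. Neither gene was called over that step. On some arrays of every day 1 and day 7 group the sum of both lay under the filter level of 7.68. Both genes were therefore tested only through later groups. Their rises from these ages and their course tests are description only. Both rose from day 7 to weaning in amoxicillin piglets, MS4A1 by 4.01 ± 1.06 (adjusted p = 0.013) and CD79A by 3.53 ± 1.12 (adjusted p = 0.036), and control piglets had 3.09 ± 1.06 and 3.28 ± 1.12 (adjusted p = 0.27 and 0.26). Both differed over the amoxicillin course (adjusted p = 0.0086 and 0.0055) and neither over the control course (adjusted p = 0.097 and 0.073). From day 1 to 28 d postweaning CD79A rose by 3.35 ± 1.12 in amoxicillin piglets (adjusted p = 0.021), where MS4A1 had -1.12 ± 1.06 (adjusted p = 0.45). The sum was highest in amoxicillin piglet 8 (15.03) and control piglet 7 (14.63) at weaning. The piglets numbered 10 at 4 d postweaning had 10.90 in the amoxicillin and 10.37 in the control arm, the highest sum of their groups, and amoxicillin piglet 25 at weaning had 10.81. Within their groups piglets 8, 7 and both numbered 10 were the highest in 6, 8, 8 and 7 of the 8 members, in the order given. Without the 2 weaning piglets the median change of the members from day 7 to weaning was -0.18 in control and -0.04 in amoxicillin piglets, against 0.31 and 0.06 with them. The step from day 1 to day 7 holds none of these piglets. The part of T cells, macrophages and B cells in the class II levels was not tested.

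Of 5 enterocyte markers 0 were called from day 1 to day 7, from day 1 to 28 d postweaning or over the course in either arm by limma, and the same held for XBP1, the plasma cell marker measured. The enterocyte markers were very bright, at a summed 16.84 to 18.30, and their saturated spots were not counted. A change in them could be hidden, so the 0 calls do not show a steady enterocyte content. Of 2 goblet cell markers 0 changed from day 1 to day 7 or to 28 d postweaning, and SPINK4 differed over the course in amoxicillin piglets (adjusted p = 0.0146). Smooth muscle markers, 3 in number, were called over the course in control piglets (3 of 3) but not from day 1 to day 7 or to 28 d postweaning. Of all tested accessions the course called 30.5% in control and 47% in amoxicillin piglets. Of the lymphoid follicle and node markers, CCL19 rose and CCL21 fell from day 1 to 28 d postweaning in both arms, with changes of 2.76 and -2.53 in control and of 4.33 and -1.5 in amoxicillin piglets.

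Genes around class II presentation were read from 4 lists. Of the transcription factors of the class II promoters, only NFYB had a probe, and it was not called in any comparison. Of 6 genes read for the interferon gamma signal, an inducer of class II genes, 5 were tested and IFNG itself was too dim. None of the 5 rose from day 1 to day 7 in either arm. From day 1 to 28 d postweaning 4 rose and 1 fell in control piglets, and 1 rose in amoxicillin piglets. Of all tested accessions 13.4% rose over these ages in control and 12.5% in amoxicillin piglets.

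IRF1, a transcription factor induced by interferon, rose by 1.64 ± 0.35 in control and 1.57 ± 0.35 in amoxicillin piglets. Its mean in control piglets went from 11.98 ± 0.39 at day 1 to 13.61 ± 0.72 at 28 d postweaning. The receptor chains IFNGR1 and IFNGR2 rose by 1.04 ± 0.30 and 0.94 ± 0.26, and the kinase JAK2 by 1.09 ± 0.32, in control piglets, while the kinase JAK1 fell by 0.57 on the log2 scale (adjusted p = 0.042). Between later ages, JAK2 passed the test in amoxicillin piglets, at -1.12 ± 0.32 from 4 d to 28 d postweaning.

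Proteases and the reductase of the endosome had 4 genes with a probe, all tested. The cathepsins CTSB, CTSD and CTSH fell from day 1 to 28 d postweaning in both arms, whereas the members called over the same ages rose. CTSH, an aminopeptidase, was at 15.64 ± 0.20 at day 1 and 12.30 ± 1.25 at 28 d postweaning in control piglets, a change of -3.34 ± 0.56 (adjusted p = 2.5e-05), and it changed by -2.42 ± 0.56 in amoxicillin piglets. CTSB changed by -1.79 ± 0.36 and -1.60 ± 0.36, and CTSD by -1.21 ± 0.26 and -0.71 ± 0.26. CTSB also fell from day 1 to day 7 in control piglets (-1.11 ± 0.29, adjusted p = 0.039). IFI30, the thiol reductase that opens disulphide bonds of antigens, was lower in amoxicillin than in control piglets at weaning (-1.37 ± 0.35, adjusted p = 0.012), within the fold threshold. CTSD was higher in amoxicillin piglets over the 5 ages (0.45 ± 0.12, adjusted p = 0.011).

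Of the surface and costimulation genes, 5 had a probe and 3 were tested. CD86, a costimulatory ligand of antigen presenting cells, had a mean of 7.17 ± 0.23 at day 1 and 9.55 ± 0.51 at 28 d postweaning in control piglets, and of 7.04 ± 0.33 and 9.95 ± 0.70 in amoxicillin piglets. It rose by 2.37 ± 0.40 and 2.92 ± 0.40. The day 1 means of CD86 lay under the filter level of 7.68. It was thus tested only through groups older than day 1, and its rises are description only. LAG3, an inhibitory receptor on T cells that binds class II molecules, rose by 2.89 ± 0.44 and 3.48 ± 0.44 from day 1 to 28 d postweaning. Neither was called from day 1 to day 7, and each passed the test once between later ages in amoxicillin piglets, CD86 from weaning to 4 d postweaning (1.45 ± 0.40) and LAG3 from day 7 to weaning (1.32 ± 0.44). CD40, a receptor of antigen presenting cells, was not called in any comparison.

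The genes whose pattern over the 43 arrays was most like the mean of the 8 tested members, out of 1850 tested accessions with a gene symbol, were PIK3CG, TNFAIP8L2, C1QB, LCK and RNASE6. Their Pearson correlations with that mean were 0.853, 0.853, 0.843, 0.839 and 0.834, as a description over arrays that share ages and slides. With the 2 arrays farthest from the median left out, the values were 0.822, 0.831, 0.791, 0.807 and 0.786. Once group means had been removed they were 0.72, 0.77, 0.62, 0.68 and 0.74. C1QB, a complement chain made by macrophages, rose from day 1 to day 7 in both arms, by 1.5 ± 0.33 in control and 1.92 ± 0.41 in amoxicillin piglets. LCK, a T cell kinase, rose by 2.75 ± 0.37 from day 1 to 28 d postweaning in each arm. Its day 1 means, 7.10 in control and 7.39 in amoxicillin piglets, lay under the filter level of 7.68. LCK was thus tested only through later groups, and its rise is description only. PIK3CG, a leukocyte lipid kinase, rose from day 1 to 28 d postweaning by 1.39 ± 0.37 in amoxicillin piglets. Its control value of 0.84 ± 0.37 missed the threshold (adjusted p = 0.090).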

How the data were processed

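RNA of jejunum scrapings was hybridised by the authors to Agilent one-color pig arrays, 1 piglet per array. The deposited scanner files hold median spot and background intensity on a linear scale from Feature Extraction 10.7.3.1, and the deposited normalized table holds log2 values made, per the submitters' notes, with R 3.0.2 and limma. Genome coordinates were not used. Here intensities were corrected with normexp (offset 1), quantile normalized and log2 transformed, which matched the authors' log2 table within 5e-09, after which flagged outlier spots were left out and probes of an accession averaged. Accessions had to exceed 1.1 times the brightest dark spot (7.68 on the log2 scale) on every array of at least 1 group.

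All 43 arrays were fitted with limma 3.58.1 (R 4.3.3) as 10 groups of treatment and age, with Benjamini-Hochberg adjustment over all 12771 accessions in each contrast. Calls needed an adjusted p under 0.05, and for a treatment contrast at 1 age were also counted with a log2 change beyond 1.5. Arrays, not counts, set the precision, through their number. The members are all genes of the set. The genes of pathway lists named are those called in any test, and the 5 genes most alike were ranked by Pearson correlation. Members and lists were chosen with earlier results of these data known. Gene names came from RefSeq accessions (Sscrofa11.1 gene table, names only), and near-identical class II genes may share a probe's signal. Per the study's methods 1 piglet was taken from each sow at each age and sows came in batches, so piglets of different ages can share a sow. The labels used here give neither sow nor batch, and the fit ignores both. Control day 1 piglets 19 and 19B share a number that the labels do not explain, and they were fitted as separate piglets. Alternatives covered background correction, scaling, filters, flagged and saturated spots, probes taken singly, slide as a block, piglet number as a block, each age alone and each array left out. Some genes of the marker and pathway lists are not reported here, and sums and counts leave them out.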

Additional observations from a re-analysis of the deposited data

Results flagged for a closer look

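In the 64 combinations of the 8 tested members with a group of 4 to 6 piglets, 2 values stood apart from their group by Dixon's criterion, which chance alone meets in about 1 in 20 groups. CD74 was at 11.81 in amoxicillin piglet 7 at weaning, where the other 3 piglets had 13.75 to 13.87. SLA-DMA was at 12.79 in amoxicillin piglet 10 at 4 d postweaning, where the other 3 had 11.52 to 11.69.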

How the results depend on the processing

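The 27 member differences that were called kept their direction under every alternative that could give them, and no called value reversed. The counts of called members moved as follows, and the cause was not tested. With slide as a fixed block, the course called 5 members in amoxicillin and 0 in control piglets, the difference between 28 d postweaning and day 1 called 0 in both arms, and the control step from day 1 to day 7 called 0. Of all tested accessions that block called 10.2% and 0.532% over the course, in amoxicillin and control piglets. For the difference it called 4.66% and 0.525%, and for the control step 0.172%. With slide as a random block that control step and the mean treatment contrast called 0 members, against 0.392% and 0.125% of all tested accessions. The control step called 3 when probes were fitted singly and a gene was called by the median adjusted p of its probes. Without the filter that step also called 3. The mean treatment contrast called 0 when normexp values or the scanner's processed signal were scaled to a common 75th percentile. Alternatives chosen after seeing the data were leaving out saturated spots, the day 1 arrays (course calls of 0 in both arms), 2 weaning arrays highest in B cell markers, and those with both piglets numbered 10. The last 2 called 2 members in the mean treatment contrast, SLA-DRB1 and SLA-DMB. Shares over all tested accessions were not computed for alternatives other than slide as a block and the day 1 arrays left out.

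Leaving out 1 array at a time, the control step from day 1 to day 7 called 1 to 6 members, with 1 to 3 without piglets 19B or 20 at day 1 or piglets 20, 21, 22 or 23 at day 7. The amoxicillin step called 5 to 8, the control course 6 to 8, and the control difference at 28 d postweaning 6 to 8. The mean treatment contrast called 0 (without control piglet 25 at weaning) to 2 (without amoxicillin piglets 38 at 28 d postweaning or 4 at day 7, or control piglets 7 at weaning or 10 at 4 d postweaning). The treatment contrast at 4 d postweaning called 0 to 1, and the amoxicillin step from day 7 to weaning 0 to 1 (SLA-DOA, without piglet 7 at weaning). Shares over all tested accessions were not computed with 1 array left out, so these counts are description only.

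Piglets of the 2 arms share some numbers within an age, and 4 of 10 such pairs deviated together (correlation over 0.1, range -0.27 to 0.44). The labels do not say whether equal numbers are linked, and 10 correlations are too few to decide it. The piglets were treated as unpaired. With piglet number as a replicate block the calls were 6 members for the control course, 8 for the amoxicillin course, 5 and 6 for the steps to day 7, and 1 for the mean treatment contrast, as without it. The share over all tested accessions was not computed for this block. Small groups of 3 to 6 arrays, spots near background for SLA-DOB and saturated spots for the DR and DQ genes limit the values.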
